A study of Homo sapiens with 18 samples.

Results

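A set of 10 genes of myeloid cells was followed by name through the table of gene counts: ITGAM, CD33, LYZ, MPO, MS4A3, LST1, SPI1, CEBPA, CSF1R and CD14. They are 10 of the 41285 genes in the file, and 9 of them, all except MPO, passed the filter on low counts. RNA was sequenced from 3 isogenic lines of K562, a human chronic myeloid leukaemia cell line, in 9 groups of 2 libraries. In VPR-D9 cells doxycycline induces dCas9-VPR, an activator, and in KRAB-D9 cells it induces dCas9-KRAB, a repressor; the gene under study is SAMD9, an interferon-induced gene. The VPR-D9 groups were D6 and D2000, both given doxycycline alone, and untreated cells. The KRAB-D9 groups received doxycycline with interferon alpha (IFN), doxycycline, IFN, or nothing. The parental line received IFN or nothing. IFN was given at 1000 U/mL for 24 hours, and KRAB-D9 cells with both agents had 24 hours of doxycycline at 2 µg/mL first, which was then continued. KRAB-D9 cells with doxycycline alone also had 2 µg/mL, for a time not given in the sources used here. For D6 and D2000 neither the dose nor the time of doxycycline is given there. What the codes D6 and D2000 stand for is not given in the sources used here, nor is whether either engineered line is a single clone. Parental cells given doxycycline are not among the groups analysed, so effects of doxycycline itself and of the induced dCas9 fusion cannot be told apart. Nothing in the labels ties the paired libraries of a group to separate cultures. The p-values therefore cover the spread between these samples alone, which may be technical.

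Myeloid cells arise from progenitors under the control of transcription factors such as PU.1, encoded by SPI1, and C/EBP alpha, encoded by CEBPA. As they mature towards granulocytes and monocytes they make granule proteins such as myeloperoxidase (MPO) and lysozyme (LYZ), and surface receptors such as CD33, CD14, the CSF-1 receptor (CSF1R) and the integrin alpha M chain (ITGAM, CD11b). MS4A3 marks granulocyte and monocyte progenitors, and LST1 is a leukocyte-specific transcript of the MHC class III region. K562 cells have mainly erythroid features, and PU.1 and the erythroid factor GATA1 are known to restrain each other's activity.

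All 10 are protein-coding, and the file gives their positions on GRCh38. ITGAM (ENSG00000169896.18) lies at chr16:31259967-31332892, CD33 (ENSG00000105383.15) at chr19:51225064-51243860 and LYZ (ENSG00000090382.7) at chr12:69348381-69354234. MS4A3 (ENSG00000149516.14) lies at chr11:60056587-60071115, SPI1 (ENSG00000066336.12) at chr11:47354860-47378547 and LST1 (ENSG00000204482.11) at chr6:31586124-31588909. Each gene has a single count per library, so isoforms were not told apart.

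RefSeq promoter windows of 300 bases matched 7 of the 10 genes (10 windows, GRCh38.p14). LYZ, MPO and SPI1 were not among them. The 3 stretches below lie directly upstream of the gene starts in the file and belong to the genes with the largest changes and to CD33. Capitals mark GAGGAA, a core of PU.1 binding sites, in ITGAM and CD33, and TTNNGNAA, a pattern of C/EBP sites, in MS4A3, each on either strand. They run 5′ to 3′ on the plus strand.
ITGAM (chr16:31259725-31259966): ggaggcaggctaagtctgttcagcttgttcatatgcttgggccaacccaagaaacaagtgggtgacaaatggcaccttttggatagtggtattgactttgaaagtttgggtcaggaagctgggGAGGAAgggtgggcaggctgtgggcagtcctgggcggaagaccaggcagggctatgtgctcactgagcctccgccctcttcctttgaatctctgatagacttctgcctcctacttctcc
CD33 (chr19:51224830-51225063): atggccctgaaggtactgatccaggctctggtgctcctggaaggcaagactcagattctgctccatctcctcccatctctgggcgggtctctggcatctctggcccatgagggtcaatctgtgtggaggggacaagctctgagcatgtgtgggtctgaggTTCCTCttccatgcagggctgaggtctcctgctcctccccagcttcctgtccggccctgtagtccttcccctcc
MS4A3 (chr11:60056415-60056586): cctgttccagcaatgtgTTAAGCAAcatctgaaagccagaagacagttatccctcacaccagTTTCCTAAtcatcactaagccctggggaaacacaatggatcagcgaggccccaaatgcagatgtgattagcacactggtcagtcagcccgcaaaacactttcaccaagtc
The ITGAM stretch holds 1 match to GAGGAA and the CD33 stretch 1, while the MS4A3 stretch holds 2 matches to TTNNGNAA and none to GAGGAA. The full windows of 300 bases reach further and hold 2 matches to GAGGAA in ITGAM, 3 in CD33 and 1 in MS4A3. The MS4A3 window also holds 3 matches to TTNNGNAA and 1 to the GATA motif AGATAA, which the ITGAM and CD33 windows lack. Of 35116 promoter windows of 300 bases, which are longer than the printed stretches, 27.9% hold GAGGAA and 36.8% hold TTNNGNAA, so such matches are common. An interferon-stimulated response element was searched for too and was found in none of the 10 windows, against 3.57% of all windows.

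Libraries held 32.7 to 63 M counts, and mitochondrially encoded genes took 3.315 to 4.963% of them. Replicate 1 of KRAB-D9 with IFN was the shallowest library. SAMD9 stood at 936 and 960 CPM in VPR-D9 D6 cells and 974 and 948 CPM in D2000 cells, against 59.9 and 61.4 CPM in untreated VPR-D9 cells. In KRAB-D9 cells it had 0.849 and 0.745 CPM with doxycycline and IFN and 55.0 and 53.5 CPM with IFN alone. SAMD9 thus followed the labels in these groups. Its level already differed between the untreated lines, averaging 60.6 CPM in VPR-D9, 0.557 CPM in KRAB-D9 and 9.18 CPM in parental cells. In KRAB-D9 cells without IFN it had 0 and 6 counts with doxycycline, against 40 and 16 counts untreated.

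Levels below are read counts relative to library size after TMM scaling (CPM), and levels of different genes are compared only as CPM per kilobase of the gene's length in the file. On that scale LYZ was the highest of the 10 genes in 15 of 18 libraries. In the other 3 libraries ITGAM led in both of D2000 (33.8 and 33.6 CPM per kb, against 29.6 and 28.9 for LYZ) and SPI1 led in replicate 2 of KRAB-D9 with doxycycline and IFN. LYZ and SPI1 overlapped in that KRAB-D9 group, at 8.40 and 6.96 CPM per kb for LYZ and 6.14 and 7.13 for SPI1. In untreated parental cells CD33 (3.31 and 3.03 CPM per kb) and MS4A3 (3.50 and 2.54) overlapped as well. In VPR-D9 D6 cells CD33 (10.3 and 10.3 CPM per kb) and ITGAM (10.3 and 9.96) differed by no more than the spread of ITGAM. These are bulk samples, so a larger share of expressing cells and more RNA per cell cannot be told apart.

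**Figure D1:**
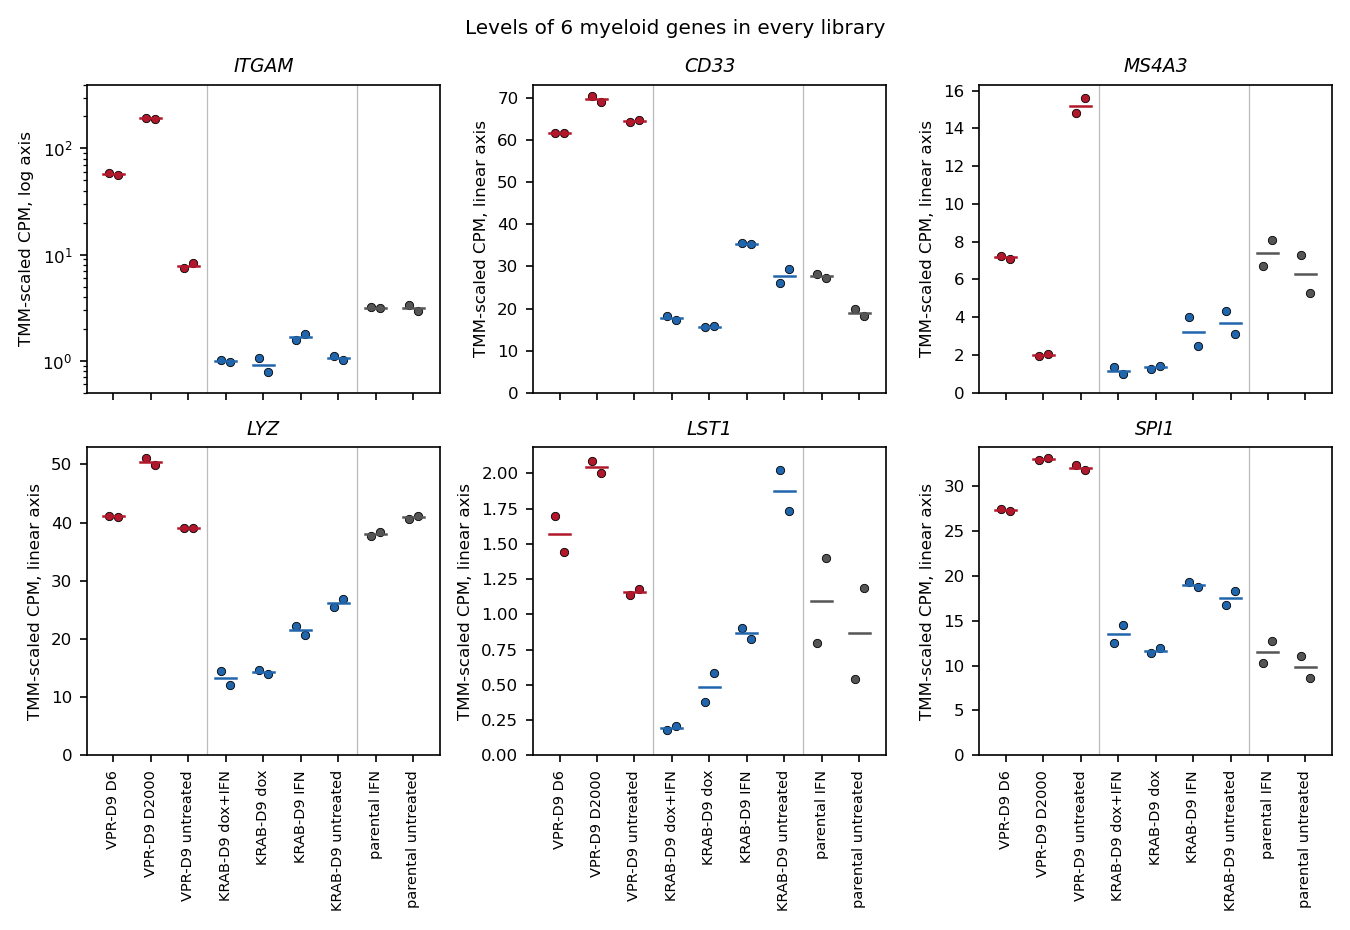
TMM-scaled CPM of ITGAM (log axis) and of CD33, MS4A3, LYZ, LST1 and SPI1 (linear axes from 0) in each of 18 libraries, with groups on the x axis; points are libraries and short lines are group means. ITGAM stands at 192 CPM in D2000, 57.5 CPM in D6 and 7.87 CPM in untreated VPR-D9 cells, while MS4A3 runs the other way.

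The other 4 genes were close to the detection floor. CD14, a co-receptor for bacterial lipopolysaccharide, had 4 to 33 counts per library. CEBPA had 0 to 20 counts, CSF1R 0 to 12 and MPO 0 to 12. MPO was counted 12 and 5 times in D2000 libraries, against 0 and 2 times in untreated VPR-D9 libraries. It had 0 counts in both libraries of D6 and of untreated and IFN-treated KRAB-D9 cells and of untreated parental cells, where a count of 0 allows up to 0.0301, 0.0308, 0.0341 and 0.0286 CPM over the group (3 counts, counting error only). CSF1R had 9 and 12 counts in D2000 libraries, against 1 and 2 in untreated VPR-D9 libraries, and 0 and 0 in KRAB-D9 cells with doxycycline, against 11 and 1 in untreated KRAB-D9 cells. CEBPA reached 20 and 12 counts in KRAB-D9 cells with doxycycline and IFN, against 7 and 0 with IFN alone, and had 0 and 0 in untreated VPR-D9 cells. None of the differences of CSF1R and CEBPA within a line was called. Neutrophil elastase (ELANE), a partner of MPO in primary granules, was counted 8 times in all 18 libraries together. Proteinase 3 (PRTN3) stayed at or below 0.279 CPM in every library. AZU1, another partner of MPO, was present in every library, at 0.728 to 2.6 CPM.

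**Figure D2:**
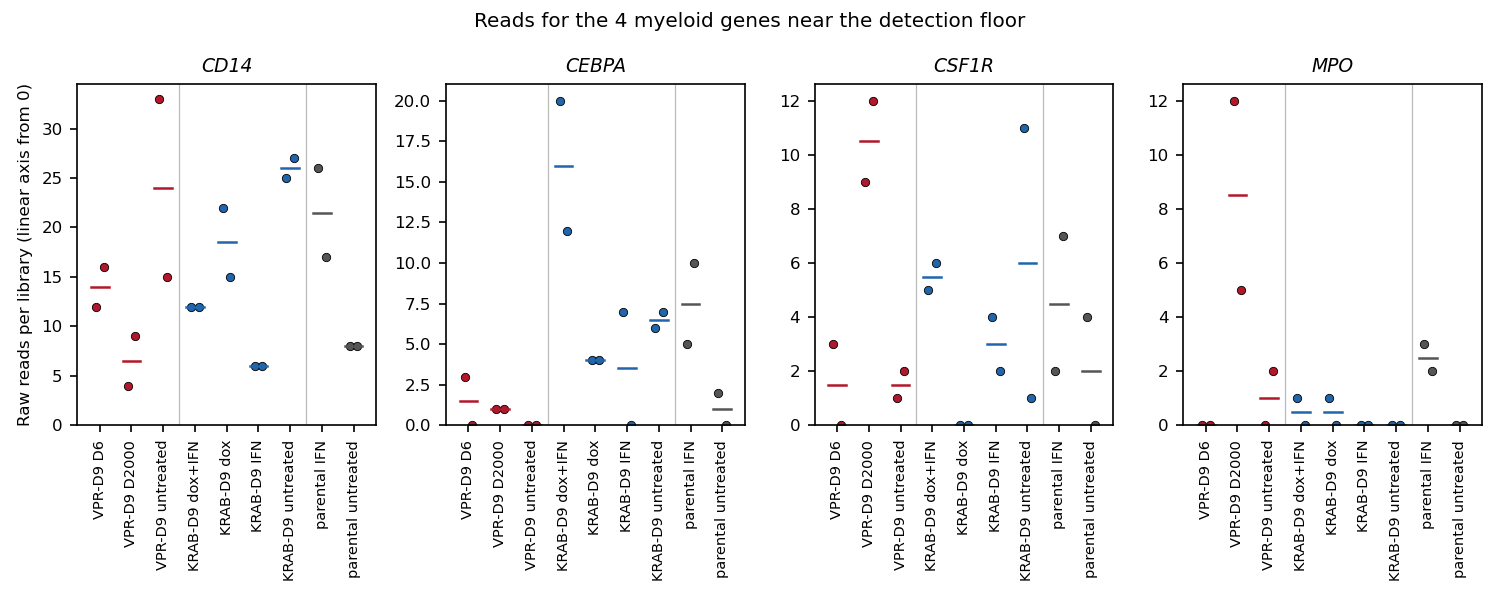
Raw reads per library for CD14, CEBPA, CSF1R and MPO in 9 groups (linear axes from 0); points are libraries and short lines are group means. No library has more than 33 reads for any of them.

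Induction of the activator in VPR-D9 cells was followed by a large gain of ITGAM and a loss of MS4A3, with little movement of CD33 and SPI1. ITGAM was at 58.5 and 56.6 CPM in D6 cells and 192 and 191 CPM in D2000 cells, against 7.41 and 8.34 CPM in untreated VPR-D9 cells. Each group lay apart from the others, with D2000 the highest. The level was 24.3-fold higher in D2000 than in untreated cells (log2 fold change 4.60 ± 0.08 SE, quasi-likelihood test of edgeR, Benjamini-Hochberg adjusted p = 2.19e-33, n = 2 and 2) and 7.31-fold higher in D6 (2.87 ± 0.08, edgeR adjusted p = 3.01e-26). Its partner chain ITGB2 (CD18), which pairs with CD11b to form the complement receptor Mac-1, was at 3.50 and 3.07 CPM in D2000 against 0.887 and 1.09 CPM in untreated cells (1.73 ± 0.31, edgeR adjusted p = 8.17e-06). In D6 ITGB2 had 1.52 and 1.5 CPM, which was not called (0.61 ± 0.32, edgeR adjusted p = 0.316).

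MS4A3, a tetraspanning membrane protein of myeloid progenitors, had 7.26 and 7.08 CPM in D6 and 1.93 and 2.04 CPM in D2000, against 14.8 and 15.6 CPM in untreated VPR-D9 cells. Both doxycycline groups lay below the untreated one. The log2 fold change was -2.93 ± 0.20 in D2000 (7.63-fold lower, edgeR adjusted p = 6.44e-16) and -1.08 ± 0.18 in D6 (2.11-fold lower, edgeR adjusted p = 5.07e-05). Of its own family, 2 of 3 tested genes fell in D2000: MS4A2, a chain of the high-affinity IgE receptor, by 5.34 ± 0.72 and MS4A4A by 1.03 ± 0.31 on the log2 scale. MS4A2 fell to near the floor, averaging 0.0826 CPM in D2000, against 3.35 CPM in untreated VPR-D9 cells. Neither family member was called in D6.

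LYZ, which breaks down bacterial cell walls, had 51.0 and 49.8 CPM in D2000 against 39.0 and 39.0 CPM in untreated VPR-D9 cells, a gain of 0.37 ± 0.07 on the log2 scale (edgeR adjusted p = 2.83e-05). In D6 it had 41.2 and 40.9 CPM and was not called (0.07 ± 0.07, edgeR adjusted p = 0.696). CD33, an inhibitory sialic acid receptor, had 61.7 and 61.6 CPM in D6 and 70.5 and 69.0 CPM in D2000, against 64.4 and 64.8 CPM in untreated cells. Its change was -0.07 ± 0.06 in D6 and 0.11 ± 0.06 in D2000, neither called (edgeR adjusted p = 0.676 and 0.164). SPI1 had 27.4 and 27.2 CPM in D6 and 32.9 and 33.1 CPM in D2000, against 32.3 and 31.8 CPM in untreated cells, also without a call (edgeR adjusted p = 0.174 and 0.759). LST1 had 1.70 and 1.44 CPM in D6 and 2.09 and 2.00 CPM in D2000, against 1.14 and 1.18 CPM in untreated cells. Its change in D2000 of 0.81 ± 0.35 missed the threshold (edgeR adjusted p = 0.0583). With a filter of at least 1 CPM in 2 libraries LST1 (0.86, edgeR adjusted p = 0.0363) and CD33 (0.16, edgeR adjusted p = 0.0298) were called in D2000. In a fit of the compared groups alone LST1 was called in D2000 (0.80, edgeR adjusted p = 0.0141) and SPI1 in D6 (-0.21, edgeR adjusted p = 0.0316).

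In D2000, 2 of the 9 tested genes (ITGAM and LYZ) rose and 2 (MS4A3 and CD14) fell, while 46.1% of all 22143 genes tested were called. In D6, 1 rose and 1 fell, against 6.6% of all genes; 48.4% of the D6 calls were rises with TMM and 69% with library totals. CD14 fell on 4 and 9 counts in D2000 against 33 and 15 in untreated cells, a call that was lost without untreated replicate 1 (edgeR adjusted p = 0.32) or D2000 replicate 1 (0.223). With library totals in place of TMM the median of all genes in D2000 moved to 0.29, against 0.06, and 68.6% of the calls were rises, against 47.6%. Under that scaling CD33 (0.34), LST1 (1.04) and SPI1 (0.27) were called too, with CD33 just above and SPI1 just below that median, and CD14 was not.

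D6 and D2000 differed from each other in 5 of the 9 tested genes, 1 higher and 4 lower in D6, while 40.4% of all genes were called; SAMD9 itself did not differ by the test (-0.02 ± 0.05, edgeR adjusted p = 0.821). ITGAM was 3.33-fold lower in D6 than in D2000 (-1.74 ± 0.07, edgeR adjusted p = 2.84e-22). MS4A3 was 3.61-fold higher in D6 (1.85 ± 0.20, edgeR adjusted p = 3.77e-10). LYZ was lower in D6 by 0.30 ± 0.07 on the log2 scale, SPI1 by 0.27 ± 0.10 and CD33 by 0.18 ± 0.06, with edgeR adjusted p of 0.000717, 0.0198 and 0.0224. The SPI1 call was lost without any 1 of the 4 libraries and with DESeq2 (adjusted p = 0.058), and the CD33 call without D2000 replicate 1 or either D6 library. With library totals 31.2% of all calls were higher in D6, against 53.6% with TMM, and the median of all genes moved to -0.25, against -0.05.

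The counts of list genes in D2000 are to be read against the 46.1% of all genes called there, 47.6% of them rises. Among other genes of myeloid cells, 7 of 15 tested surface receptors rose in D2000 and none fell (median log2 fold change 0.98, against 0.06 for all genes). They include the aminopeptidase ANPEP (CD13, 1.04 ± 0.17) and the signalling adaptor TYROBP (DAP12, 0.87 ± 0.27). Of 13 tested genes on the granule list 6 rose and 1 fell (median 0.17). The rises include LCN2, which binds bacterial siderophores, at 5.36 ± 0.64, the protease inhibitor SERPINB1 at 1.13 ± 0.06 and cathepsin S (CTSS) at 0.87 ± 0.08. LCN2 rose from near the floor, averaging 4.11 CPM in D2000, against 0.0994 CPM in untreated VPR-D9 cells. The granule proteins MPO, ELANE and PRTN3 stayed at or below 0.167, 0.0631 and 0.279 CPM in every library. Of 8 cytokine receptors and ligands 4 rose and 1 fell: CSF1, the ligand of CSF1R, rose by 1.00 ± 0.11, and KIT, the receptor for stem cell factor, fell by 2.62 ± 0.14. CD33 signals through phosphatases, and of its 7 tested partners 3 rose and 3 fell (3 and 2 with library totals), with INPP5D (SHIP1) at 1.28 ± 0.11, PTPN6 (SHP-1) at 1.00 ± 0.14 and PTPN11 (SHP-2) at -0.38 ± 0.04. In D6 none of the 15 surface receptors was called by edgeR (2 had an unadjusted p under 0.05). On the granule list LCN2 (2.96 ± 0.65, to 0.781 CPM on average) and SERPINB1 (0.37 ± 0.06) rose in D6.

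Among transcription factors falls outnumbered rises. Of 19 tested factors on the myeloid list 2 rose and 9 fell in D2000 (3 and 6 with library totals), with RUNX1 at -1.23 ± 0.06 and CEBPB at -0.55 ± 0.09. That list is not limited to factors specific to myeloid cells. It includes MYC, which averaged 54.7 CPM in D2000, against 166 CPM in untreated VPR-D9 cells. Of 7 erythroid factors 5 fell and none rose with TMM (4 and 1 with library totals), led by NFE2 (-1.45 ± 0.04), KLF1 (-1.15 ± 0.06) and GATA2 (-0.81 ± 0.05), and GATA1 was at -0.68 ± 0.04. Erythroid markers fell beside them: 18 of 22 were lower in D2000 and none higher (15 and 2 with library totals), and their summed level was 918 to 942 CPM in D2000 against 1820 to 1830 CPM in untreated VPR-D9 cells. In D6, 7 of 22 were lower and none higher, and the sum was 1660 to 1680 CPM. Of the 22 markers, the carbonic anhydrase CA2 had 0 counts in all 6 VPR-D9 libraries and the adult globin HBB had 0 in both untreated ones. Megakaryocyte markers summed to 46.9 to 48.8 CPM in D2000, against 18.9 to 23.0 CPM in untreated cells (4 of 9 higher, 1 lower), with PPBP at or below 0.169 CPM in every library. Lymphoid markers were higher in 3 of 11 and lower in 1 (5 and 1 with library totals), at a sum of 23.0 to 24.2 CPM in D2000 against 15.0 to 16.4 CPM in untreated cells. The part of these markers in the myeloid changes was not tested. Of the smaller lists, 4 of 9 genes near ITGAM rose and 1 fell, 1 of 4 S100 proteins rose and 1 fell (1 and 0 with library totals), and 2 of 8 Siglecs rose and 2 fell, shares of calls near that of all genes.

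In KRAB-D9 cells the induced repressor was followed by lower levels of 5 of the 9 tested genes without IFN and of 6 with it, and by no rise. The background was 12.7% of all genes lower without IFN and 11.9% with it. CD33 had 15.6 and 15.8 CPM with doxycycline, against 26.0 and 29.3 CPM in untreated KRAB-D9 cells, and 18.1 and 17.3 CPM with both agents, against 35.5 and 35.3 CPM with IFN alone. The groups did not overlap in either pair. The log2 fold changes were -0.81 ± 0.07 without IFN and -1 ± 0.07 with it (edgeR adjusted p = 1.99e-11 without IFN and 5.15e-14 with IFN). LYZ had 14.7 and 14.0 CPM with doxycycline, against 25.5 and 26.9 CPM untreated, and 14.5 and 12 CPM with both agents, against 22.2 and 20.7 CPM with IFN alone, changes of -0.87 ± 0.08 and -0.69 ± 0.08.

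MS4A3 and LST1 had the largest called falls among the 9 genes in KRAB-D9 cells. MS4A3 stood at 1.26 and 1.42 CPM with doxycycline, against 4.31 and 3.09 CPM untreated (-1.47 ± 0.23, edgeR adjusted p = 2.48e-06). With both agents it stood at 1.34 and 0.987 CPM, against 3.99 and 2.48 CPM with IFN alone (-1.43 ± 0.24, edgeR adjusted p = 9.67e-06). Its doxycycline libraries were below all libraries without doxycycline in that line. LST1 had 0.379 and 0.585 CPM with doxycycline, against 2.02 and 1.73 CPM untreated, a 3.89-fold lower level (-1.96 ± 0.39, edgeR adjusted p = 0.000174). With both agents it had 0.181 and 0.205 CPM, against 0.902 and 0.826 CPM with IFN alone (4.48-fold lower, -2.14 ± 0.46, edgeR adjusted p = 0.000483).

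SPI1 fell to 11.4 and 11.9 CPM with doxycycline, against 16.7 and 18.3 CPM untreated (-0.58 ± 0.11, edgeR adjusted p = 3.46e-05), and to 12.5 and 14.5 CPM with both agents, against 19.3 and 18.7 CPM with IFN alone (-0.49 ± 0.10, edgeR adjusted p = 0.000424). ITGAM was already at 1.11 and 1.02 CPM in untreated KRAB-D9 cells, against which 1.06 and 0.780 CPM with doxycycline overlapped (-0.22 ± 0.20, edgeR adjusted p = 0.504). With IFN present it had 1.01 and 0.969 CPM with doxycycline, against 1.58 and 1.77 CPM without (-0.78 ± 0.18, edgeR adjusted p = 0.000985). That call was lost without replicate 2 of the IFN group (edgeR adjusted p = 0.0594) and in a fit of the compared groups alone (0.114). With library totals 57.2% of all calls without IFN were rises, against 48.5% with TMM, and with IFN 61.4%, against 46.7%.

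**Figure D3:**
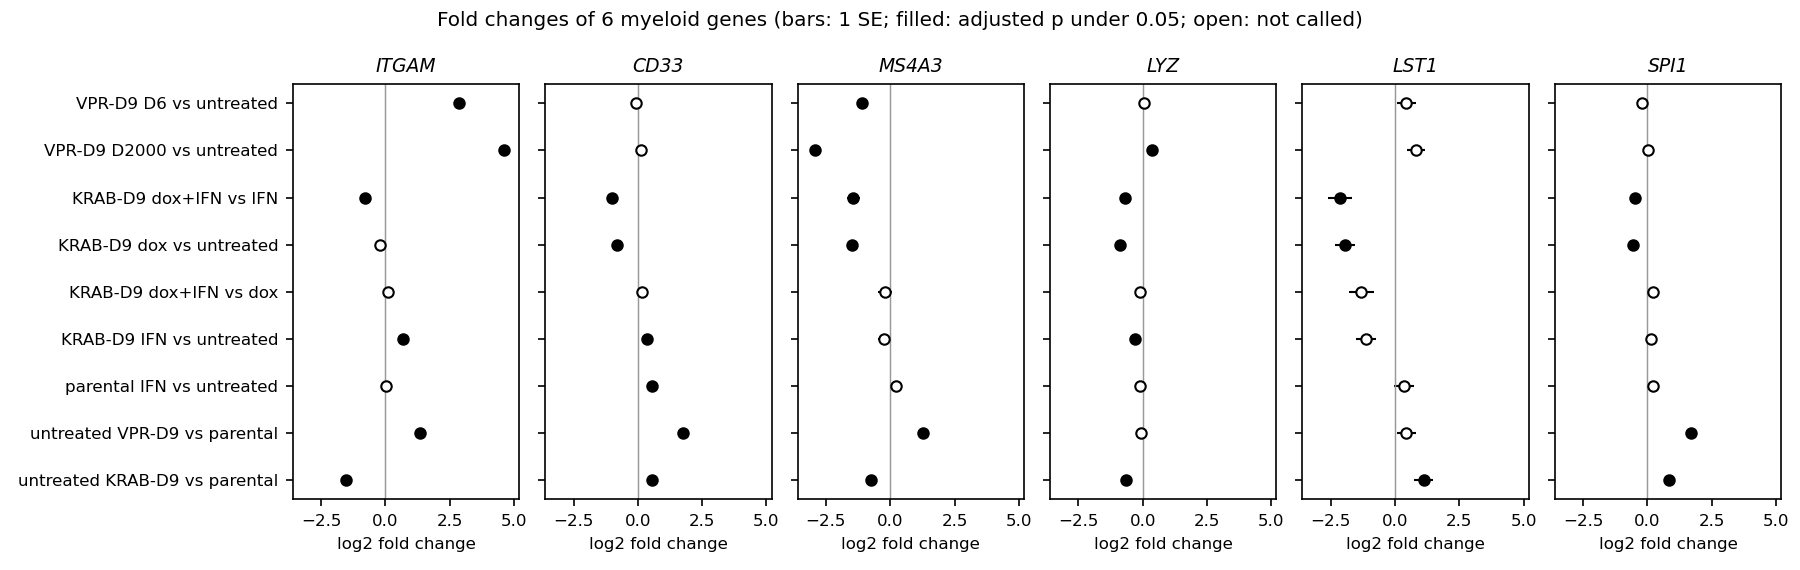
Log2 fold changes (x axis) of ITGAM, CD33, MS4A3, LYZ, LST1 and SPI1 in 9 comparisons (rows), each named with the treated or engineered group first; bars are 1 SE, filled points have an edgeR adjusted p under 0.05. MS4A3 lies left of 0 under doxycycline in both engineered lines, while ITGAM lies at 4.60 and 2.87 in VPR-D9 cells.

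The counts of list genes in KRAB-D9 cells are to be read against those of all 22143 genes tested. Without IFN 12.7% of all genes were lower with doxycycline and 2654 genes were higher. With IFN 11.9% were lower and 2302 genes were higher. In the gene lists, 5 of 15 tested surface receptors fell with doxycycline in KRAB-D9 cells and 1 rose (median -1.22, against 0.02 for all genes). The Fc receptor FCGR2A fell by 1.66 ± 0.09, TYROBP by 1.18 ± 0.32, ITGB2 by 1.22 ± 0.34 and the phosphatase PTPRC (CD45) by 0.52 ± 0.05 on the log2 scale. Of 8 tested Siglecs related to CD33, 3 fell and none rose, led by SIGLEC6 (-1.52 ± 0.09), SIGLEC8 (-1.45 ± 0.34) and SIGLEC12 (-2.80 ± 0.95). SIGLEC12 was near the floor, at 0.0397 CPM on average with doxycycline, against 0.288 CPM untreated. Of 13 genes on the granule list 2 fell, a share near the 12.7% of all genes. They were CTSS (-0.63 ± 0.09) and PRSS57 (-1.67 ± 0.57), the latter from a low level (0.099 CPM with doxycycline, against 0.318 CPM untreated on average). With IFN present 3 surface receptors fell and 1 rose (median -0.68, against 0.01 for all genes), and ITGB2 was not called (-0.68, edgeR adjusted p = 0.175). On the granule list 1 gene fell there, CTSS (-0.38 ± 0.09), and 2 rose, LCN2 (5.90 ± 1.73) and SERPINB1 (0.17 ± 0.06), with a list median of 0.00. LCN2 averaged 0.137 CPM with both agents, against 0 CPM with IFN alone, so the size of its rise depends on the prior count. The Siglecs had 3 falls and no rise with IFN as well. Of 19 transcription factors on the myeloid list 4 rose and 5 fell, both without and with IFN. Without IFN RUNX1 fell by 0.28 ± 0.05, while CEBPG and CEBPB rose by 0.36 ± 0.07 and 0.25 ± 0.09 and GATA1 was not called (0.04 ± 0.04). Erythroid markers were higher in 13 of 22 and lower in 2 (13 and 1 with library totals), and summed to 5220 to 5320 CPM with doxycycline, against 4460 to 4530 CPM untreated. With IFN 10 were higher and 3 lower, at 5430 to 5530 CPM with both agents, against 4950 to 5170 CPM with IFN alone. Of the erythroid factors 4 rose and 1 fell without IFN. Megakaryocyte markers were lower in 4 of 9 and higher in 1 without IFN, and lower in 3 and higher in 1 with it. The collagen receptor GP6 averaged 2.27 CPM with doxycycline, against 14.6 CPM untreated, the integrin chain ITGA2B 6.71 CPM, against 18.2 CPM untreated, and the platelet tubulin TUBB1 40.2 CPM, against 17.7 CPM untreated. The sum of the megakaryocyte list was 52.9 to 53.5 CPM with doxycycline, against 58 CPM in both untreated libraries. Markers of fibroblasts or epithelia fell in 7 of 8, to a sum of 581 to 614 CPM with doxycycline, against 835 to 852 CPM untreated, and LUM, a defining fibroblast marker, stayed at or below 0.0816 CPM in every library. The part of these markers in the myeloid falls was not tested.

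**Figure D4:**
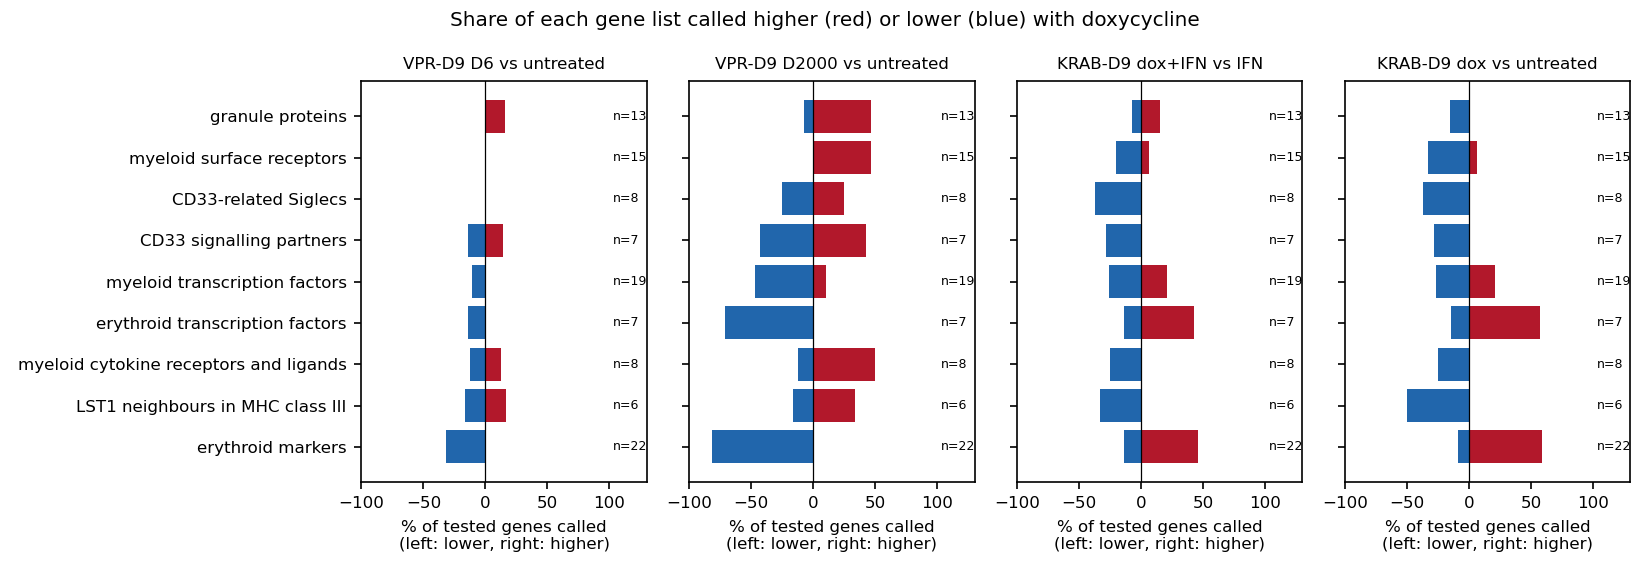
Share of the tested genes of 9 lists called lower (left, blue) or higher (right, red) with doxycycline, in percent, for 4 comparisons with the treated group named first; n is the number of genes tested. Surface receptors are called mainly higher in D2000 (7 of 15) and mainly lower in KRAB-D9 cells (5 of 15), and erythroid markers the reverse (18 of 22 lower in D2000, 13 of 22 higher in KRAB-D9 cells). Of all 22143 genes tested, 4853 were called higher in D2000, and 2815 lower and 2654 higher with doxycycline in KRAB-D9 cells without IFN.

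The effect of doxycycline was next compared between the lines, as a difference of log2 fold changes that shares no library. Of the 9 tested genes 6 moved more upward or less downward in VPR-D9 D2000 than in KRAB-D9 cells without IFN and 1 moved more downward, against 12.2% and 19.1% of all genes. With library totals 63.2% of all calls of this difference were upward, against 38.9% with TMM. The difference was 4.82 ± 0.23 for ITGAM, 2.77 ± 0.53 for LST1, 1.24 ± 0.11 for LYZ, 0.92 ± 0.10 for CD33 and 0.63 ± 0.14 for SPI1 (edgeR adjusted p from 2.35e-19 to 0.000465). MS4A3 fell in both lines, and by more in D2000 (-1.46 ± 0.30, edgeR adjusted p = 0.000155). The sixth upward gene, CSF1R, rests on 0 counts in both KRAB-D9 libraries with doxycycline and lost its call in each of 6 fits that left out 1 library, among them the fit without untreated KRAB-D9 replicate 1 (edgeR adjusted p = 0.277). For D6 the difference was 3.09 ± 0.22 for ITGAM, 2.39 ± 0.54 for LST1, 0.94 ± 0.11 for LYZ and 0.75 ± 0.10 for CD33, 4 of 9 genes against 7.87% of all genes. For MS4A3 (0.39 ± 0.29) and SPI1 (0.35 ± 0.14) it was not called in D6 (edgeR adjusted p = 0.436 and 0.0911), though SPI1 was called in a fit of the compared groups alone (0.37, edgeR adjusted p = 0.0199).

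IFN moved few of the genes. In parental cells CD33 had 28.3 and 27.3 CPM with IFN, against 19.8 and 18.1 CPM untreated, a gain of 0.55 ± 0.07 on the log2 scale (edgeR adjusted p = 3.40e-07). It was the single gene of 9 called there, against 4.34% of all genes. ITGAM had 3.20 and 3.12 CPM with IFN, within the range of 3.35 and 2.91 CPM untreated, and LYZ had 37.7 and 38.3 CPM, against 40.6 and 41.2 CPM untreated (-0.10 ± 0.07, not called).

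In KRAB-D9 cells without doxycycline 2 genes rose and 1 fell with IFN, against 6.4% of all genes. CD33 had 35.5 and 35.3 CPM with IFN, against 26.0 and 29.3 CPM untreated (0.36 ± 0.07, edgeR adjusted p = 0.000444). ITGAM had 1.58 and 1.77 CPM, against 1.11 and 1.02 CPM untreated (0.67 ± 0.18, edgeR adjusted p = 0.0162), and LYZ had 22.2 and 20.7 CPM, against 25.5 and 26.9 CPM untreated (-0.30 ± 0.08, edgeR adjusted p = 0.0138). All 3 calls were lost in a fit of the 2 compared groups alone, with edgeR adjusted p of 0.0582, 0.388 and 0.137. Without IFN replicate 2, untreated replicate 1 or untreated replicate 2 only 1 of them remained.

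With doxycycline present none of the 9 genes was called for IFN by edgeR or by DESeq2; 3 higher and 1 lower had an unadjusted p under 0.05 in edgeR, and 4.89% of all genes were called. CD33 had 18.1 and 17.3 CPM with both agents, against 15.6 and 15.8 CPM with doxycycline (0.17 ± 0.07, edgeR adjusted p = 0.227). The change of LST1 with IFN missed the threshold in both KRAB-D9 comparisons (-1.13 ± 0.38 without doxycycline and -1.31 ± 0.48 with it, edgeR adjusted p = 0.0693 and 0.128). The tests of whether the IFN effect depended on doxycycline or on the line (KRAB-D9 minus parental) called none of the 9 genes, by edgeR or DESeq2. In edgeR 2 genes had an unadjusted p under 0.05 in the test of doxycycline and 3 in the test of the line, and 0.158% and 0.303% of all genes were called. Of the lists, CTSS and the granule proteoglycan SRGN rose with IFN in the parental line (0.51 ± 0.09 and 0.44 ± 0.05) and in KRAB-D9 cells (0.32 ± 0.09 and 0.39 ± 0.05), as did CSF1 (0.77 ± 0.12 and 0.59 ± 0.12).

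The lines differed before any treatment. These comparisons share the untreated parental libraries. In untreated VPR-D9 cells 4 of 9 genes were higher than in parental cells and none lower, against 18.5% and 18.2% of all genes. CD33 had 64.4 and 64.8 CPM in VPR-D9, against 19.8 and 18.1 CPM in parental cells, 3.41-fold higher (1.77 ± 0.07, edgeR adjusted p = 8.14e-23). SPI1 had 32.3 and 31.8 CPM, against 11.1 and 8.57 CPM in parental cells (3.26-fold, 1.70 ± 0.10), ITGAM was 2.52-fold higher (1.33 ± 0.10) and MS4A3 2.41-fold higher (1.27 ± 0.18). LYZ was close in both (39.0 and 39.0 CPM in VPR-D9, against 40.6 and 41.2 CPM in parental cells). In the lists LY96, which carries lipopolysaccharide to its receptor beside CD14, was higher in VPR-D9 by 3.81 ± 0.37, and SIGLEC6 by 3.10 ± 0.09.

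In untreated KRAB-D9 cells 3 genes were higher than in parental cells and 3 lower, against 28.5% of all genes called. SPI1 was 1.78-fold higher (16.7 and 18.3 CPM in KRAB-D9, against 11.1 and 8.57 CPM in parental cells; 0.82 ± 0.11, edgeR adjusted p = 6.02e-08) and CD33 1.46-fold higher (0.54 ± 0.07). LST1 was at 2.02 and 1.73 CPM, against 0.540 and 1.19 CPM in parental cells (1.12 ± 0.37, edgeR adjusted p = 0.0192). ITGAM was 2.94-fold lower in KRAB-D9 (-1.55 ± 0.15, edgeR adjusted p = 1.55e-10), LYZ 1.56-fold lower (-0.64 ± 0.07) and MS4A3 1.70-fold lower (-0.76 ± 0.19). The LST1 call was lost without parental replicate 1 (edgeR adjusted p = 0.353) or KRAB-D9 replicate 1 (0.126), and the MS4A3 call without parental replicate 1 (0.121) or KRAB-D9 replicate 2 (0.0826). Erythroid markers summed to 1820 to 1830 CPM in untreated VPR-D9 and 4460 to 4530 CPM in untreated KRAB-D9 cells, against 2800 to 2830 CPM in parental cells (19 of 22 lower in VPR-D9 and 19 of 22 higher in KRAB-D9), and their part in these differences was not tested.

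LST1 lies on chromosome 6 among immune genes of the MHC class III region, and 6 of its neighbours there were tested. In D2000 2 of the 6 rose and 1 fell (5 and 0 with library totals), a share of calls near the 46.1% of all genes. With library totals 68.6% of all calls there were rises. With doxycycline in KRAB-D9 cells 3 of the 6 fell and none rose, against 12.7% of all genes lower. AIF1, a calcium-binding protein of macrophages whose gene lies 26.3 kb from LST1, had 29.0 and 31.2 CPM in D6 and 58.7 and 55.0 CPM in D2000, against 12.5 and 14.0 CPM in untreated VPR-D9 cells. Its log2 fold changes were 1.18 ± 0.11 and 2.1 ± 0.11 (edgeR adjusted p = 1.05e-09 in D6 and 2.93e-18 in D2000). In KRAB-D9 cells AIF1 had 6.28 and 4.70 CPM with doxycycline, against 14.3 and 12.4 CPM untreated (-1.29 ± 0.13, edgeR adjusted p = 7.11e-10). NCR3, an activating receptor of natural killer cells that overlaps LST1 in the file's coordinates, was at 83 and 68 counts in D2000, against 16 and 30 in untreated cells (1.55 ± 0.68, edgeR adjusted p = 0.0593). It had 4 and 3 counts with doxycycline in KRAB-D9, against 16 and 30 untreated (-2.78 ± 0.85, edgeR adjusted p = 0.0126). The shared stretch is short, from chr6:31588895 to 31588909. The strand setting of the counting is not given in the sources used here, so reads of LST1 and NCR3 within that stretch cannot be told apart. LTB, 3.6 kb away, rose in D2000 from few counts (76 and 50 in D2000, against 21 and 14 untreated; 1.66 ± 0.62, edgeR adjusted p = 0.0268). Near ITGAM on chromosome 16, the integrin gene ITGAX, 22.2 kb away, had 10 and 4 counts in D2000, against 13 and 10 in untreated VPR-D9 cells, and was not called (-0.88 ± 0.84, edgeR adjusted p = 0.426). Among the 9 tested genes near ITGAM, the focal adhesion protein TGFB1I1, 139 kb away, rose (4.28 CPM in D2000, against 1.62 CPM untreated on average; 1.40 ± 0.29), as did the glucose transporter SLC5A2 (0.91 ± 0.31).

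**Figure D5:**
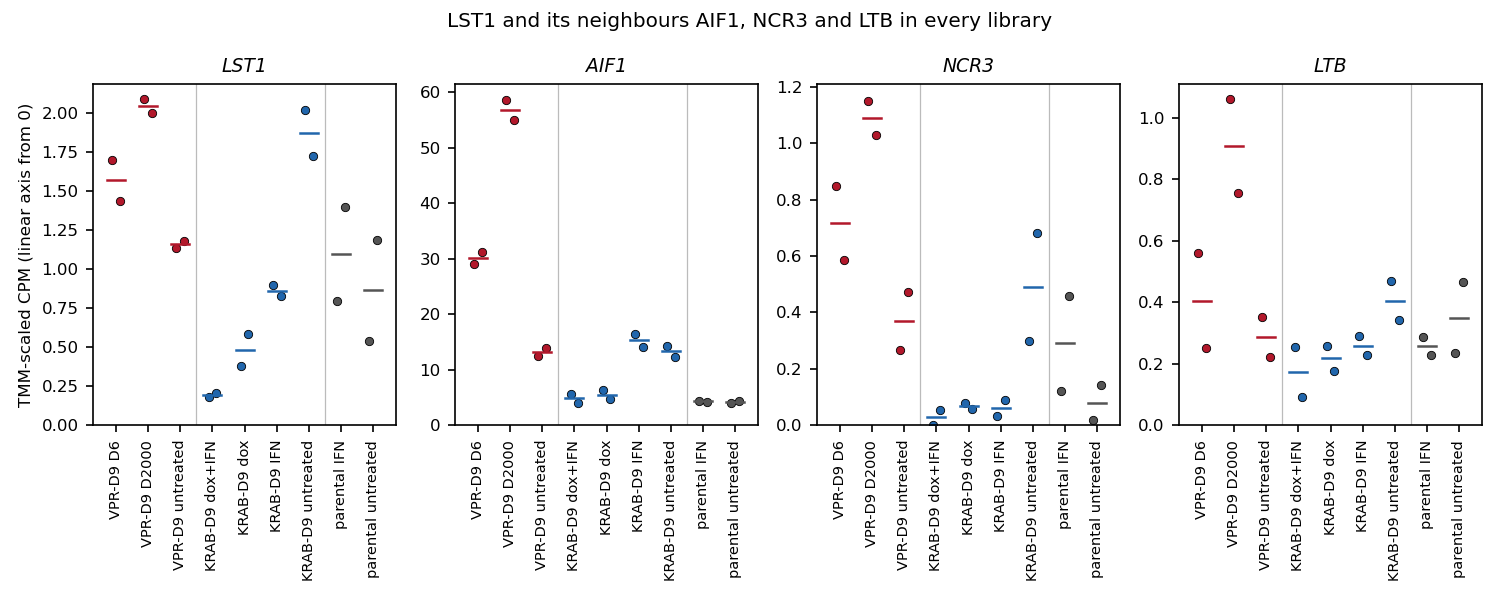
TMM-scaled CPM of LST1, AIF1, NCR3 and LTB (linear axes from 0) in each of 18 libraries by group; points are libraries and short lines are group means. AIF1 reaches 56.9 CPM in D2000 and 30.1 CPM in D6, against 13.3 CPM in untreated VPR-D9 cells, and lies at 5.49 CPM with doxycycline in KRAB-D9 cells.

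Across the 9 group means, the genes whose log2 levels followed each of these genes most closely among 12700 genes were ranked by Pearson's r, as a description over points that share lines and treatments. NBEAL2 (r = 0.99), TRAFD1 (0.986) and CHP2 (0.985) were closest to ITGAM, and TMSB10 (0.984), XXYLT1 (0.98) and SMCR8 (0.971) to CD33. For LYZ they were TRIO (0.982), ELK3 (0.981) and LINC00689 (0.98), and for MS4A3 TBCB (0.984), TUSC2 (0.98) and CEP135 (0.979). C2CD2L (0.985), CREB3L2 (0.984) and LPCAT2 (0.981) were closest to SPI1, and PPP1R11 (0.962), WAS (0.951) and PTPN22 (0.948) to LST1. Among the 15 pairs of these 6 genes CD33 and SPI1 had the highest r (0.94), and ITGAM and MS4A3 the lowest (0.24).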

How the data were processed

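The values are raw read counts of 41285 genes in 18 libraries, as the authors deposited them. Per the submitters' processing notes, the tools were STAR 2.7.8a, featureCounts 2.0.2, FastQC 0.11.9 and cutadapt 2.10, with build GRCh38.p13; the notes give no order. Libraries were made with a stranded kit that selects polyA mRNA, per the labels' protocols; the sources used here give no annotation release, strand setting or treatment of multimapping reads.

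Genes were filtered with filterByExpr by group, leaving 22143, scaled by TMM and fitted in edgeR 4.0.16 (R 4.3.3) by a robust quasi-likelihood model of 9 group means, with 9 residual degrees of freedom; the common biological coefficient of variation was 0.0569. A call is a p under 0.05 after Benjamini-Hochberg adjustment across the tested genes, in each of 14 comparisons. The SE is the size of the log2 fold change over the square root of F, and is approximate at low counts, where a prior count enters. The group floor is 3 counts. The steps were checked on simulated counts.

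The members and the 15 lists were chosen with earlier results of these data known. Named beside the members are direct partners and, per list and comparison, the 3 called genes with the smallest adjusted p; likeness used log2 CPM with a prior count of 2 among genes of at least 1 CPM. ITGAX was named after its values were seen. PU.1, C/EBP and interferon motifs, and the GATA motif AGATAA (10.3% of windows), were searched on both strands. Alternatives were other scalings and filters, DESeq2 1.42.0, the compared groups alone, a replicate block and leaving out each library.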

Additional observations from a re-analysis of the deposited data

Results flagged for a closer look

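For 7 genes the doxycycline effect in VPR-D9 D2000 cells differed from that in KRAB-D9 cells without IFN, by a test of the difference of log2 fold changes (edgeR, Benjamini-Hochberg adjusted p from 2.35e-19 to 0.0241). The differences were 4.82 for ITGAM, 0.92 for CD33, 1.24 for LYZ, -1.46 for MS4A3, 2.77 for LST1, 0.63 for SPI1 and 8.21 for CSF1R. The CSF1R value is fitted against 0 counts in both KRAB-D9 libraries with doxycycline and depends on the prior count. For D6 the same test was passed by 4 genes, with differences of 3.09 for ITGAM, 0.75 for CD33, 0.94 for LYZ and 2.39 for LST1 (edgeR adjusted p from 1.28e-13 to 0.0012). The lines differ in the dCas9 fusion and, before treatment, in the levels of these genes and of SAMD9. The dose and time of doxycycline are not given for the VPR-D9 groups and may differ too. These differences cannot be told apart. Groups of 2 libraries are too small for a search for single outlying libraries.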

How the results depend on the processing

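Of 78 results on single genes, DESeq2 size factors and the replicate block kept direction and side of the threshold in all 78. Replicate numbers share only a number: deviations of same-numbered libraries correlated at -0.04 to 0.06 over 36 pairs of groups, and with the block 10154 genes were called in D2000, against 10201 without it, with no count of calls moved past 1.5 times in any comparison. Library totals put LYZ in VPR-D9 against parental cells at 0.00. In a fit of the compared groups alone, calls came to 465 genes (0 of the 9) for IFN in KRAB-D9, 3270 for doxycycline with IFN, 2327 for D6, 14 for IFN by doxycycline and 22 for IFN in KRAB-D9 minus parental cells. The last pair came to 74 and 133 without a filter and to 83 and 102 with DESeq2. Leaving out 1 library gave 467 to 781 genes for IFN in parental cells, 815 to 2202 (1 to 3 of the 9) for IFN in KRAB-D9, 591 to 650 for IFN with doxycycline, 752 to 853 for D6, 17 to 769 for IFN by doxycycline, 20 to 992 for IFN in KRAB-D9 minus parental cells, and 3 to 4 of the 9 called for D6 against D2000. The highest counts for the IFN comparisons of KRAB-D9 came without IFN replicate 2. Signs turned, in values not called, for LST1 (-0.12 to 1.02) and ITGAM (-0.08 to 0.12) with IFN in parental cells, MS4A3 with IFN in KRAB-D9 (-0.59 to 0.10), ITGAM (-0.09 to 0.34) and LYZ (-0.26 to 0.01) with IFN and doxycycline, and LST1 in VPR-D9 against parental cells (-0.04 to 1.10). The cause was not tested. Where 1 library remained in a group it was assumed to vary like the others. Depth limits CD14, CEBPA, CSF1R and MPO, which have at most 33 counts in a library.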
